A study of Homo sapiens with 3 samples.

Results

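The promoters of 9 genes named at atrial fibrillation loci, ENPEP, PRRX1, ZFHX3, CAV1, CAV2, KCNN3, SYNPO2L, MYOZ1 and SYNE2, were followed in promoter capture Hi-C (PCHi-C) data of cardiomyocytes. PCHi-C crosslinks and ligates stretches of DNA that are neighbours in nuclear space, and enriches the ligation products for restriction fragments that carry a promoter. The cells were hESC-CMs, cardiomyocytes derived from WA09 (H9), an established line of human embryonic stem cells, with a commercial differentiation kit, enriched in glucose-free medium with lactate and checked with the cardiomyocyte markers MYH7 and TNNT2. All 3 biological replicates were of this single line and condition, so no group comparison was possible, SDs are between replicates, and the labelled cell type could not be checked from contacts, which hold no expression values. A promoter fragment counted as a member when it stood first in a listed pair and held a transcript start of 1 of the 9 genes in GENCODE release 44 on GRCh37. This gave 11 of the 19075 promoter fragments in the union of the 3 replicates. CAV2 and SYNPO2L had 2 fragments each and the other genes 1 each.

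Atrial fibrillation is a disorganised rhythm of the atria, and common variants linked to it mostly lie outside protein-coding sequence. A fragment in contact with a promoter may hold an enhancer of that gene, which can lie far away and inside or beyond other genes, and a contact by itself does not show regulation. The genes at these loci span several roles. PRRX1 and ZFHX3 encode homeobox transcription factors, CAV1 and CAV2 encode the coat proteins of membrane caveolae, and KCNN3 encodes a small-conductance calcium-activated potassium channel. SYNPO2L and MYOZ1 encode proteins of the sarcomeric Z-disc, SYNE2 encodes a nesprin that ties the nucleus to the cytoskeleton, and ENPEP encodes glutamyl aminopeptidase, an enzyme that cleaves angiotensin II.

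An interaction joined 2 HindIII fragments and carried a CHiCAGO score, which measures how far the reads of the pair exceed a background set by distance and technical noise. The lowest score listed was 5, so a pair that a replicate did not list may have scored below that. The replicates listed 112473, 109731 and 110740 interactions in all, and their union held 200809. All 11 member fragments and all 139 fragments they contacted had a HindIII site at both ends.

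The 9 genes had 102, 86 and 98 interactions in replicates 1, 2 and 3 (mean 95.3 ± 8.33, SD, n = 3). Of the 162 interactions in their union, all 3 replicates called 47, 2 called 30, and a single replicate called 85. The share called in all 3 replicates was 29.0% (95% Wilson interval 22.6 to 36.4%, counting error only), beside 23.9% of all 200809 interactions. Among interactions over at most 1 Mb on 1 chromosome it was 31.8% for these genes, 47 of 148, beside 33.8% of all such interactions, so the replication of their contacts was near the background. At least 1 interaction in all 3 replicates was found for 8 of the 9 genes, all but ENPEP, and for 55.8% of the 15515 protein-coding genes with a promoter fragment. Scores of the interactions listed in both members of a pair of replicates had Spearman correlations of 0.697 for replicates 1 and 2 (57 interactions), 0.614 for 1 and 3 (61 interactions) and 0.769 for 2 and 3 (53 interactions), given as a description because the interactions share fragments and libraries.

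Pooled over the genes, the contacts spanned shorter distances than those of the series, but single genes lay on both sides. The median distance between fragment midpoints was 275 kb over the 160 interactions on the same chromosome, and 262 kb for the 47 called in all 3 replicates (97.4 to 739 kb). The medians over the whole series were 716 kb and 396 kb. For contacts in all 3 replicates, PRRX1 (median 734 kb), ZFHX3 (558 kb) and SYNE2 (454 kb) lay above the series. CAV1, CAV2, KCNN3, SYNPO2L and MYOZ1 lay below it, from 103 kb for MYOZ1 to 279 kb for KCNN3. These differences were not tested. Of the 47, 31 lay upstream and 16 downstream of the promoter fragment, and 3 lay within the gene itself. The partner overlapped an exon of a protein-coding gene in 13, lay in an intron of such a gene in 16, overlapped other kinds of gene only in 14, and overlapped no annotated gene in 4. A protein-coding gene start other than the member gene's own lay between promoter and partner in 27 of the 47, or 57.4%. The annotated CAV2 start, for example, was not counted for CAV2 partners that lay beyond it. The share was 73.2% of all 47353 same-chromosome interactions called in all 3 replicates, where own starts were not left out. The shares were thus counted by different rules, and no difference between them can be inferred.

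**Figure D1:**
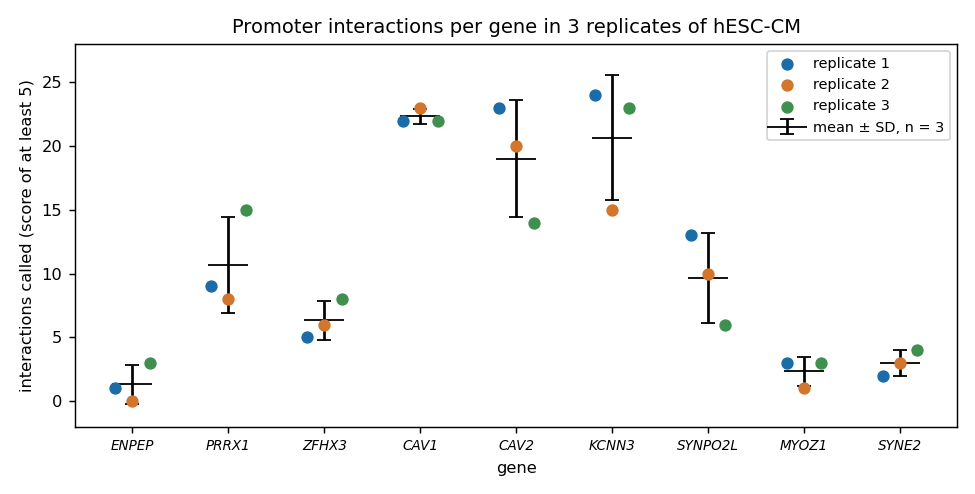
Number of interactions (vertical axis, score of at least 5) of each gene (horizontal axis) in each replicate as coloured points, with the mean and SD of the 3 replicates in black. CAV1, KCNN3 and CAV2 lay highest and overlapped, and ENPEP, MYOZ1 and SYNE2 had at most 4 interactions in any replicate.

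CAV1 had the highest mean number of interactions, with 22, 23 and 22 in replicates 1, 2 and 3 (mean 22.3 ± 0.577), and KCNN3 (20.7 ± 4.93) and CAV2 (19.0 ± 4.58) followed within the spread between replicates. In replicate 1 KCNN3 with 24 and CAV2 with 23 lay above CAV1, and in replicate 3 KCNN3 with 23 did. PRRX1 (10.7 ± 3.79) and SYNPO2L (9.67 ± 3.51) overlapped each other, and the range of ZFHX3 (6.33 ± 1.53) overlapped that of SYNPO2L. SYNE2 (3.00 ± 1.00), MYOZ1 (2.33 ± 1.15) and ENPEP (1.33 ± 1.53) overlapped and lay below ZFHX3 in every replicate. The median protein-coding gene had 7 interactions in the union and 1 in all 3 replicates. KCNN3 with 35, CAV1 with 33 and CAV2 with 32 had more interactions than 92.8%, 91.7% and 91.1% of protein-coding genes, while ENPEP with 4 and MYOZ1 with 5 had more than 27.1% and 34.7%.

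**Figure D2:**
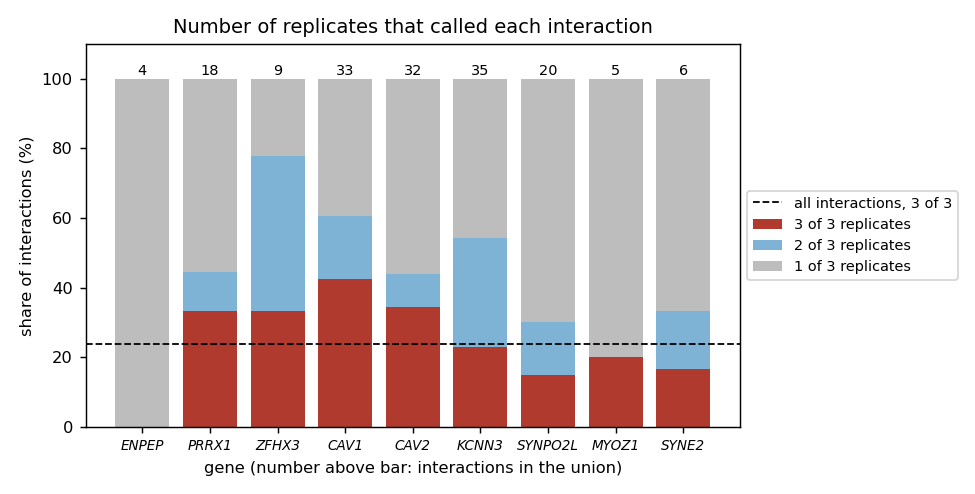
Share of each gene's interactions (vertical axis, percent) called in 3, 2 or 1 of the replicates, with the number of interactions in the union above each bar. The dashed line is the 23.9% of all interactions called in all 3 replicates. CAV1 reached 42.4% and ENPEP 0%. The line includes contacts over any distance. Over at most 1 Mb on 1 chromosome the share was 46.7% for CAV1 and 33.8% for all interactions.

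The transcription factor gene PRRX1, on chromosome 1, had 9, 8 and 15 interactions in replicates 1, 2 and 3 and 18 in the union, with 6 called in all 3. Without replicate 3 the union held 11, since 7 were listed in that replicate and no other. All 18 lay upstream, 593 to 772 kb away, in or beside KIFAP3 and SCYL3. The 6 in all 3 replicates all fell in KIFAP3, which encodes a subunit of a kinesin motor, past the starts of GORAB, NTMT2 and KIFAP3. The strongest partner was an intronic fragment of 220 bp at chr1:169899451-169899670, which scored 13.92, 11.02 and 13.95 in replicates 1, 2 and 3 (mean 13.0 ± 1.68). It is shown whole because it marks the position with the highest score to within a short stretch of sequence. The capitals are what HindIII leaves of its site at the cut ends, here and below, and the strand is the plus strand of GRCh37.
KIFAP3 fragment: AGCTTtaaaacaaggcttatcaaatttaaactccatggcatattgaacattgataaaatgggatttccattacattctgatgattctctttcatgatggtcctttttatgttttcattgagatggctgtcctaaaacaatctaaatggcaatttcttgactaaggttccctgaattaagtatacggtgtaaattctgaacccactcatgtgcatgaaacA

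That fragment closed a run of 4 adjoining fragments called in all 3 replicates, chr1:169891901-169899670, whose mean scores rose from 5.24 ± 0.155 at the end farthest from PRRX1 through 8.70 ± 1.11 and 10.6 ± 1.86 to 13.0. The next fragment towards PRRX1 scored 10.44 in replicate 3 and was not listed in replicates 1 and 2. Further contacts in all 3 replicates lay at chr1:169956226-169958025 (7.31 ± 0.575) and at chr1:169990454-169993364, a promoter fragment with a start of the gene ENSG00000232959, which scored 7.99, 7.89 and 12.3. The promoter that shared most of these partners was that of MROH9, which contacted 5 of the 6 in all 3 replicates, 55.6% of its own 9. The GORAB promoter contacted 3 of the 6, which is 50% of its own 6. Contacts with KIFAP3 were thus called from neighbouring promoters too, and were not listed for PRRX1 alone.

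ZFHX3, whose product is a large homeobox and zinc finger factor, had 5, 6 and 8 interactions on chromosome 16 and 9 in the union. The promoter fragment with interactions, chr16:73090145-73095911, holds alternative starts. The start of the MANE Select transcript, the reference transcript of the gene, lies on the fragment chr16:73077590-73086288, for which no interaction was listed in any replicate or in the merged calls. Whether that fragment was among those captured is not known from the sources used here, so a lack of contacts there cannot be inferred. The 3 interactions called in all 3 replicates went to 3 adjoining fragments downstream, 556 to 559 kb away, in the long non-coding RNA gene LINC01572. The strongest, at chr16:72536517-72536904, scored 9.66, 9.27 and 8.90 (mean 9.28 ± 0.380), the next 6.44, 8.68 and 7.39, and the last 7.81, 6.68 and 5.15. No protein-coding gene start lay between these fragments and ZFHX3. The first 120 bases of the strongest fragment are shown because GATA and E-box letters lie close together in them. Beside the cut end, the capitals mark AGATAA and CAGCTG.
LINC01572 fragment, first 120 bases: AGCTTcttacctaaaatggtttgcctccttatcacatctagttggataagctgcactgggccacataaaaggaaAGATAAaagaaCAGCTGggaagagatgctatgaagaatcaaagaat

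A second group of ZFHX3 contacts lay on the opposite side, 812 to 823 kb upstream within the far 5′ part of the gene as annotated. It held 4 fragments, 3 of them called in 2 replicates and 1 in 1, with mean scores from 5.83 to 6.77. None was called in all 3 replicates.

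CAV1 and CAV2, neighbours on chromosome 7, had the most contacts in all 3 replicates of the 9 genes. CAV1, which encodes caveolin-1, had 33 interactions, all upstream, of which 14 or 42.4% (95% Wilson interval 27.2 to 59.2%) were called in all 3 replicates. Over at most 1 Mb the share was 46.7%, 14 of 30, beside 33.8% of all such interactions, and the difference was not tested. Its strongest partner, at chr7:115900071-115904032 between TES and the annotated CAV2 gene, scored 19.18, 16.64 and 21.24 (mean 19.0 ± 2.30), the highest mean of the 47. The next was a fragment that overlaps an exon of TES, a focal adhesion gene, at chr7:115896975-115897797, with 19.51, 14.69 and 17.11 (17.1 ± 2.41). The 5 highest means of CAV1, from 15.3 to 19.0, fell on 5 adjoining fragments, chr7:115896975-115905829. Around them, 23 of its interactions and 12 of those in all 3 replicates fell in 1 stretch of 109 kb, chr7:115890992-116000139. The other 2 in all 3 replicates lay farther away, at the TFEC promoter fragment chr7:115798163-115800738 (6.75, 6.73 and 7.31) and the fragment beside it (6.55, 6.18 and 6.90). TFEC encodes a transcription factor of the MiT family.

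CAV2, which encodes caveolin-2, had 23, 20 and 14 interactions from 2 promoter fragments. The fragment with the MANE Select start, chr7:116135054-116142201, had 18 in the union, all upstream, and 9 in all 3 replicates. Its strongest partner, at chr7:115904033-115905104, scored 12.52, 10.56 and 10.53 (mean 11.2 ± 1.14). It adjoined the strongest fragment of CAV1, and CAV1 scored 12.77, 18.95 and 15.50 there. The first 120 bases of both strongest fragments are shown because they stand next to each other at the centre of the contacts of both genes. None of the letters searched, named with the motif counts, occurs in these first 120 bases. The whole CAV1 fragment held 6 GATA, 1 E-box and 5 TATA box matches, and the whole CAV2 fragment 2 GATA and 1 E-box.
Strongest CAV1 fragment, first 120 bases: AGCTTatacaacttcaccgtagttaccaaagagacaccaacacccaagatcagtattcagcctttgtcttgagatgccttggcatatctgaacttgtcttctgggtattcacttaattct
Strongest CAV2 fragment, first 120 bases: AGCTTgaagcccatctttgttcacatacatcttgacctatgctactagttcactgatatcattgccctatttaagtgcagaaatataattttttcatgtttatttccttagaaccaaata

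The CAV1 and CAV2 promoter fragments lie 28.1 kb apart, midpoint to midpoint, and 8 partners were called for both in all 3 replicates, 57.1% of the 14 of CAV1 and 88.9% of the 9 of this CAV2 fragment. In the union they shared 16, which is 48.5% of the 33 of CAV1 and 88.9% of the 18 of CAV2. The CAV1 score was higher than the CAV2 score in every replicate at all 8. The difference in mean score ran from 0.55, at a 212 bp fragment in a CAV2 intron, to 10.8, at the strongest fragment of CAV1. The smallest difference in a single replicate was 0.25. With 3 replicates and neighbouring fragments that share libraries, no test of the difference was run, and scores carry the background of each promoter as well as its reads. The 212 bp fragment, chr7:115948771-115948982, scored 6.33, 6.08 and 6.60 with CAV1 and 6.08, 5.66 and 5.62 with CAV2. It is shown whole as the partner at which the 2 promoters scored most alike.
Shared CAV1 and CAV2 fragment: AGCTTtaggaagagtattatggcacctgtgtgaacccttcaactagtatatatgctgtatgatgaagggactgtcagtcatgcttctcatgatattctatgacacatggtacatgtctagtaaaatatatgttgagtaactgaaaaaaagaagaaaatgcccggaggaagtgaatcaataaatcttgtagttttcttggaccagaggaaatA

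**Figure D3:**
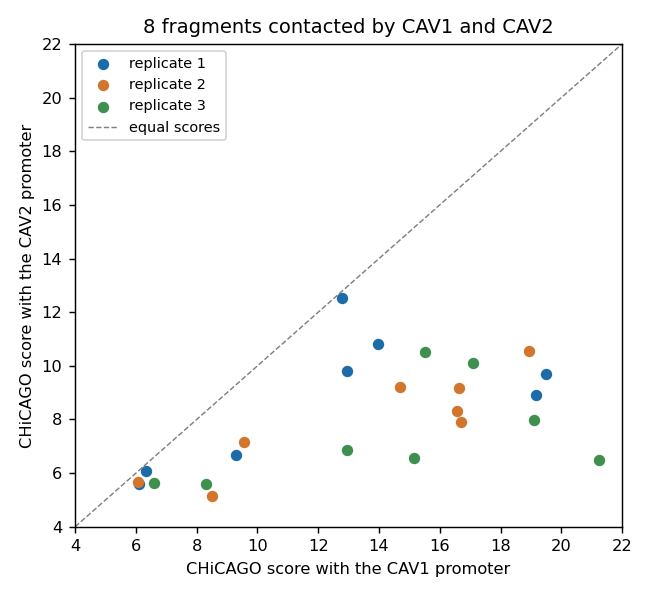
CHiCAGO scores of the 8 fragments contacted in all 3 replicates by CAV1 (horizontal axis) and by the CAV2 fragment with the MANE Select start (vertical axis). Each point is a fragment in 1 replicate and the dashed line marks equal scores. Every point lies below the line.

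A promoter fragment downstream of CAV1, chr7:116210079-116213191, on which no GENCODE release 44 transcript starts, shared 9 partners with CAV1 and 8 with CAV2 in all 3 replicates. A promoter fragment of ENSG00000235427 inside CAV1 shared 7 and 6. In all 3 replicates CAV2 also contacted the promoter fragment of AC002066.2, chr7:115984335-115988337, within its own annotated gene (8.01, 7.68 and 6.65), and CAV1 contacted it in replicates 1 and 3 (7.49 and 5.20). The second CAV2 fragment, chr7:115924625-115929514, carries the starts of 7 CAV2 transcripts with no defined coding sequence. It had 14 interactions, 13 of them downstream, and shared none with CAV1 or with the other CAV2 fragment. Its 2 interactions in all 3 replicates went to chr7:116159366-116161008 between CAV2 and CAV1 (7.52, 5.55 and 5.03) and to chr7:116226785-116227104 between CAV1 and MET (7.62, 5.07 and 5.41). The contacts of this fragment with CAV1 and with the other CAV2 fragment were listed only in the merged calls, at 5.41 and 5.42.

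**Figure D4:**
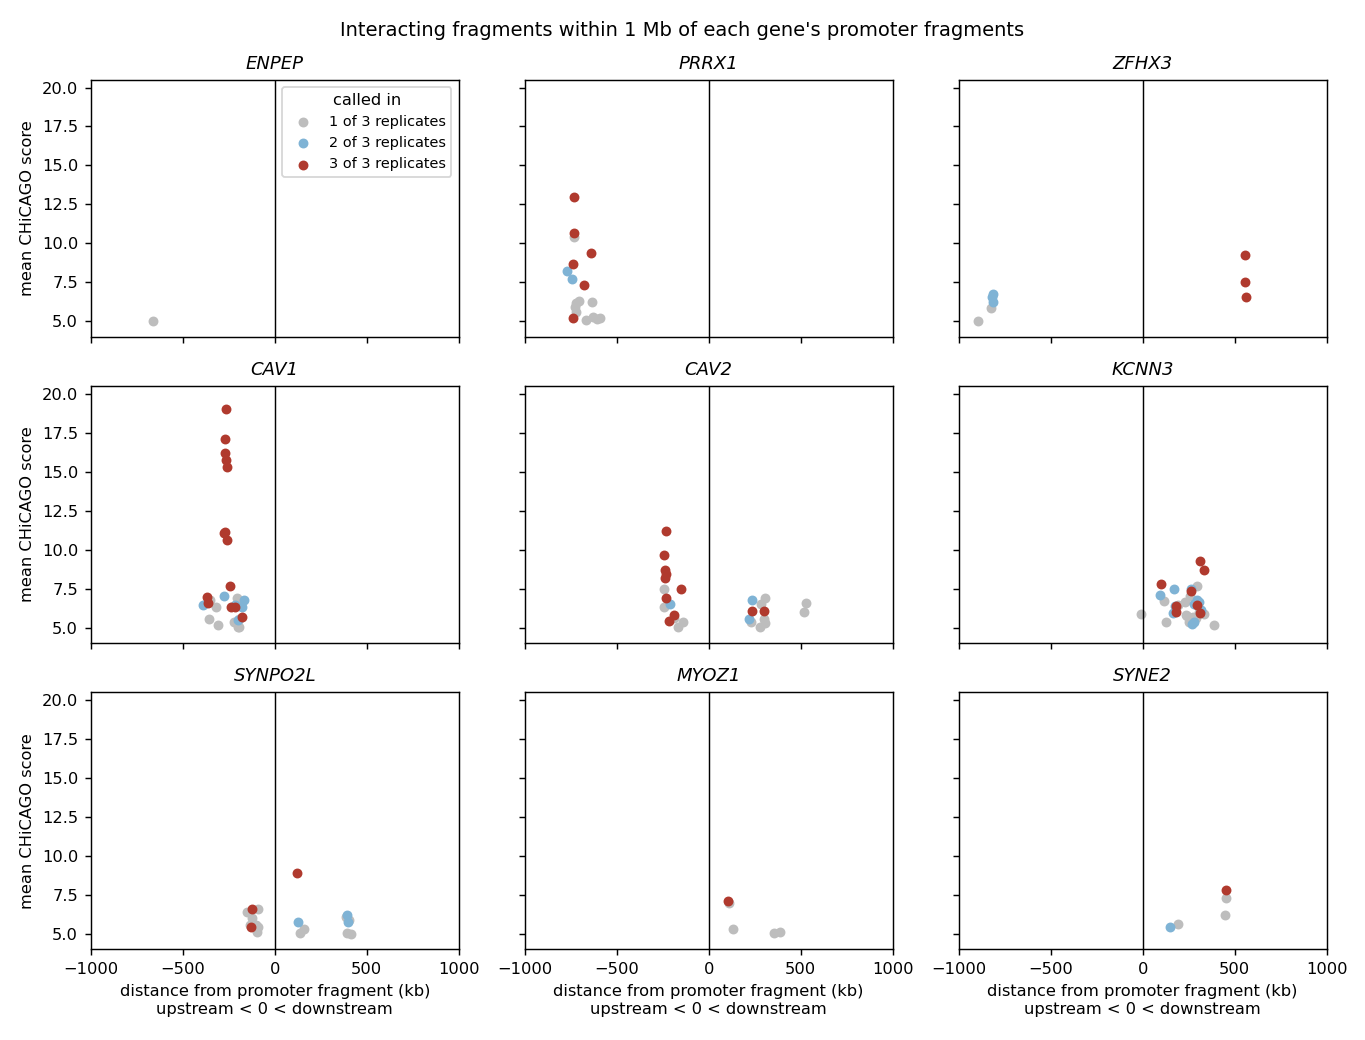
Mean CHiCAGO score (vertical axis) of each interacting fragment within 1 Mb against its distance in kb from the promoter fragment (horizontal axis, upstream negative), 1 panel per gene. Colours give the number of replicates that called it. The contacts of PRRX1 and CAV1 lay upstream, those of KCNN3 downstream except for 1, and ZFHX3 had a group on each side.

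KCNN3, the potassium channel gene, had 24, 15 and 23 interactions on chromosome 1 and 35 in the union, 34 of them downstream at 94.0 to 388 kb and 1 upstream at 10.7 kb. In all 3 replicates 8 were called. The strongest fell in an intron of UBE2Q1, a ubiquitin-conjugating enzyme gene, at chr1:154528818-154529330 with 11.50, 8.76 and 7.63 (mean 9.30 ± 1.99). The next fell in an intron of TDRD10 at chr1:154507282-154507485 with 7.64, 9.72 and 8.70 (8.69 ± 1.04). The 2 means differed by less than the spread between replicates. Both lie beyond the starts of 4 protein-coding genes, ADAR, AL606500.1, CHRNB2 and UBE2Q1, at 310 and 331 kb from KCNN3. The TDRD10 fragment of 204 bp is shown whole, with AGATAA in capitals, and so is a fragment of 265 bp in an intron of the RNA-editing gene ADAR, chr1:154576667-154576931, which scored 7.86, 5.83 and 8.29 and in which the TATA box letters overlap on the 2 strands.
TDRD10 fragment: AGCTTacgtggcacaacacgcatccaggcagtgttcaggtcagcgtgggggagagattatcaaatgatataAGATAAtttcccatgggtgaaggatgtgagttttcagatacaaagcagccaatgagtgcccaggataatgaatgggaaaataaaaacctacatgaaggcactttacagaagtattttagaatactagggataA
ADAR fragment: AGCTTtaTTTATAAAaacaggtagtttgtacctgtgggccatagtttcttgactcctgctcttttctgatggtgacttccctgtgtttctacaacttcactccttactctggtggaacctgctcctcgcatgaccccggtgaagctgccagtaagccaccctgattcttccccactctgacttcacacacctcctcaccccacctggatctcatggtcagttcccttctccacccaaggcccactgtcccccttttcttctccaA

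Contacts of KCNN3 with other promoters were repeated in this stretch. The UBE2Q1 promoter fragment chr1:154521938-154528817 was called in all 3 replicates (5.41, 5.39 and 6.92). A pair of promoter fragments can be listed in either order, and 2 more contacts reached all 3 replicates when order was disregarded. They were the UBE2Q1 fragment chr1:154529331-154539787 with 7.06, 6.01 and 6.19, and the promoter fragment of CHRNB2, a nicotinic acetylcholine receptor subunit gene, with 6.26, 7.64 and 7.33. KCNN3 also contacted its own gene at chr1:154740806-154742039 (8.79, 6.42 and 8.14), 97.4 kb downstream, the shortest of the 47 contacts. That fragment was the 1 partner in all 3 replicates with the MEF2 letters. The promoter fragment of ZBTB7B, a zinc finger transcription factor gene, shared the most partners with KCNN3, 2 of the 8, which were both of its own 2.

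The Z-disc genes SYNPO2L and MYOZ1 are neighbours on chromosome 10. SYNPO2L, which encodes a synaptopodin-like actin-binding protein, had 13, 10 and 6 interactions from 2 adjoining promoter fragments, and 3 of the 20 in the union were called in all 3 replicates. Without replicate 1 the union held 13. MYOZ1, which encodes the calcineurin-binding Z-disc protein myozenin 1, had 3, 1 and 3, and 1 of its 5 was called in all 3. Its union held 3 without replicate 1 and also without replicate 3. Both genes had their strongest contact at the same fragment, chr10:75291397-75293601, in an intron of the deubiquitinase family gene USP54. Promoter fragments with starts of USP54, SEC24C, FUT11 and CHCHD1 contacted this fragment in all 3 replicates too, so it was not listed for SYNPO2L and MYOZ1 alone. From the SYNPO2L fragment chr10:75409109-75414647 it scored 10.73, 7.83 and 8.12 (mean 8.89 ± 1.60), and from MYOZ1 8.68, 5.40 and 7.13 (7.07 ± 1.64). SYNPO2L was the higher in each replicate, though the ranges of both genes over the replicates overlapped. The SYNPO2L fragment with the MANE Select start was listed with it in replicates 1 and 3 (5.80 and 5.67). Its first 120 bases are shown because it is the strongest partner of both genes.
USP54 fragment, first 120 bases: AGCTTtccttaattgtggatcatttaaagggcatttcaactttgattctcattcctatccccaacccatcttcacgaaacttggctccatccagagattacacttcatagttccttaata

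On the other side, both SYNPO2L fragments contacted chr10:75539778-75541234 at FUT11, a fucosyltransferase gene, in all 3 replicates. The fragment with the MANE Select start scored 7.18, 7.54 and 5.08 and the other 5.52, 5.29 and 5.54. A USP54 promoter fragment, chr10:75283271-75291396, contacted the FUT11 fragment in all 3 replicates too, so the FUT11 fragment was not listed for SYNPO2L alone. MYOZ1 had no listed contact on that side. Fragments 355 to 413 kb downstream, at DNAJC9 and CFAP70, were listed for SYNPO2L and MYOZ1 in at most 2 replicates.

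SYNE2, the nesprin gene on chromosome 14, had 2, 3 and 4 interactions and 6 in the union. The 1 called in all 3 replicates reached chr14:64768205-64769454, 454 kb downstream past the end of SYNE2 and in ESR2, the gene of oestrogen receptor beta, with 7.40, 7.27 and 8.71 (mean 7.79 ± 0.797). The 2 fragments before it were listed in 1 replicate each, at 7.32 in replicate 1 and 6.19 in replicate 3. The promoter fragment of the RNA gene RNU6-1162P contacted the same ESR2 fragment in all 3 replicates, its 1 such interaction. Within SYNE2, chr14:64461653-64461822 scored 5.42 and 5.40 in replicates 2 and 3. The fragment overlaps an ESR2 exon at its first bases, so the last 120 are shown, with the cut end in capitals.
ESR2 fragment, last 120 bases: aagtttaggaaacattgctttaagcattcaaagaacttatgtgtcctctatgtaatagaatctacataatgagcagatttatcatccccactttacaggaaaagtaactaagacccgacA

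ENPEP, the peptidase gene on chromosome 4, was the 1 member with no interaction in all 3 replicates. It had 1, 0 and 3 interactions, all different, with scores from 5.02 to 6.90, and none was in the merged calls. Without replicate 3 there was 1. The ENPEP fragment with these contacts, chr4:111281746-111287051, holds the start of 1 transcript with no defined coding sequence. The MANE Select start lies at chr4:111397311 on the fragment chr4:111396761-111399221, for which no interaction was listed in either position in any set of calls. Whether that fragment was captured is not known from the sources used here, and no contact of that start can be reported.

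The body of ENPEP was contacted by other promoters. These genes were named after their values were seen. In the union, 20 interactions from 4 other promoter fragments fell in the gene, and 7 were called in all 3 replicates. Of the 7, 5 came from the promoter fragment of EGF, which encodes epidermal growth factor, and 1 each from CASP6, a caspase gene, and ELOVL6, a fatty acid elongase gene. All 3 promoters met at the same fragment, chr4:111435499-111440690. It scored 35.94, 32.24 and 19.16 with EGF (mean 29.1 ± 8.82) at 515 kb, which exceeded every mean score of the 9 member genes. It scored 7.09, 19.63 and 13.62 with CASP6 (13.4 ± 6.27), and 5.30, 5.23 and 5.11 with ELOVL6 (5.21 ± 0.0961). Among the 20 was also the contact of CASP6 with the ENPEP promoter fragment (5.02, replicate 3), already counted for ENPEP above. Contacts from other promoters fell in the other member genes too. ZFHX3 had 27 from 8 promoter fragments and CAV2 25 from 8, of which 1 and 4 were called in all 3 replicates.

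**Figure D5:**
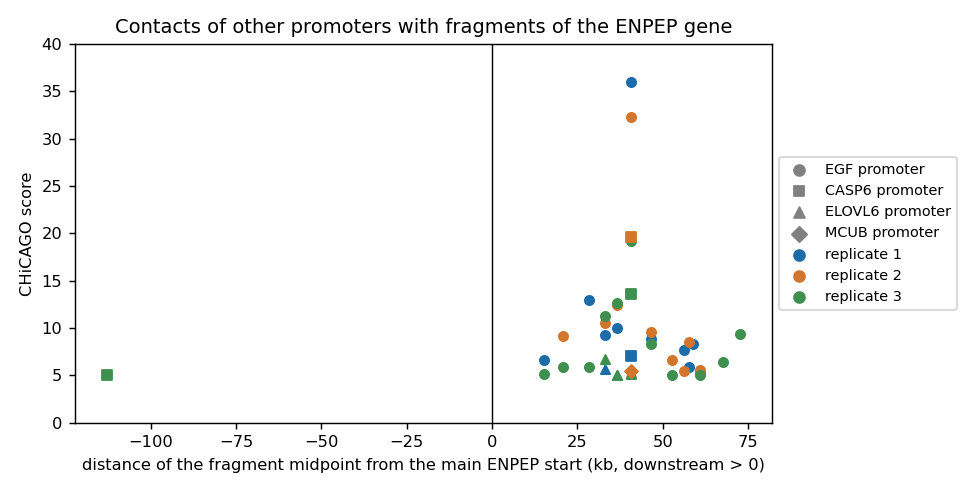
CHiCAGO scores (vertical axis) of fragments in the ENPEP gene contacted by other promoters, against the distance in kb of the fragment midpoint from the MANE Select start of ENPEP (horizontal axis). Marker shapes give the contacting promoter and colours the replicate. The EGF promoter reached 35.94, 32.24 and 19.16 at 1 fragment inside the gene.

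Letters of known binding motifs were searched on both strands in the 37 distinct partners called in all 3 replicates, beside the 33467 partners called in all 3 in the whole series. GATA letters (AGATAA) were held by 78.4% of the member partners and 71.2% of all, at 9.55 and 7.22 per 10 kb. E-box letters (CAGCTG, the same on both strands) were held by 45.9% and 53.7%, at 3.94 and 4.62 per 10 kb. TATA box letters (TATAAA) were held by 67.6% and 75.3%, but at 14.7 and 11.3 per 10 kb, so share and density ran in opposite directions. MEF2 letters (TAAAAATAG) were held by 2.70% and 10.4%, at 0.119 and 0.386 per 10 kb. Over the 139 partners in the union, beside all 116591, the direction of the share turned for TATA box letters (80.6% and 77.3%) and MEF2 letters (12.2% and 11.2%), and it stayed for GATA (77.0% and 72.7%) and E-box letters (46.8% and 52.1%). CTCF core letters (AGGGGGCGC) were in none of the 37 and in 1.88% of all. The median length was 1768 bp for the member partners and 2083 bp for all, and the shares depend on length. Of 19 RefSeq promoter windows of the 9 genes (GRCh38.p14), 13 lay on a member promoter fragment. GATA letters were in 3 of the 19 (15.8%) and E-box letters in 5 (26.3%), beside 10.3% and 17.9% of all 35116 windows. A gene can have several windows, and KCNN3 had more than 1 of those with E-box letters. TATA box letters were in 5.26% and 11.5%, and the CTCF core and MEF2 letters were in none of the 19 and in 1.93% and 0.453% of all. Of the 3 windows with GATA letters, only that of PRRX1 lay on a member promoter fragment, and the others, of SYNE2 and ZFHX3, did not. The window with TATA box letters, of ENPEP, did not either. The GATA share of the 19 therefore does not describe the promoter fragments followed here. A match is a run of letters and not a bound site.

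Other genes of related function were counted by lists chosen from general knowledge. An interaction in all 3 replicates was found for 5 of 6 other caveola genes, 5 of 7 other Z-disc and synaptopodin family genes and 1 of 3 other SK channel genes. Of 6 other genes of the LINC complex and nuclear envelope (SYNE1, SYNE3, SUN1, SUN2, EMD and LMNA), 2 had one, SYNE1 and LMNA. So did 2 of 3 other homeobox genes and 2 of 5 other aminopeptidase and renin-angiotensin genes. For single families the counts lay on both sides of the 55.8% of protein-coding genes.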

How the data were processed

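The authors mapped PCHi-C reads of 3 hESC-CM replicates to GRCh37 with HiCUP, and CHiCAGO with its default settings gave the interactions. The deposited files give a CHiCAGO score for each pair of HindIII fragments, once per replicate and once over the merged replicates, and list no score below 5. Read counts and sequencing depth were not used here, and tool versions are not given in the sources used here. The merged calls are the authors' pooled values and served as an alternative.

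Each interaction was an ordered pair of fragments, and results refer to the union over the 3 replicates unless stated. Transcript starts came from GENCODE release 44 mapped to GRCh37, sequences from GRCh37 and promoter windows from RefSeq (GRCh38.p14). A member could stand in either column. Distances are between midpoints, and neighbouring partners were grouped where gaps were at most 20 kb. Shares carry 95% Wilson intervals. With a single condition no test was run. A further list of genes at such loci is not reported here. The counting was tested on simulated data. The members, the gene lists and the motifs were chosen with earlier results of these data known. Genes were named where they lie at the strongest partner in all 3 replicates, on a promoter fragment contacted in all 3, or on the promoter sharing most partners, and others were chosen after their values were seen. Alternatives were scores of at least 7 and 10, each replicate left out, the merged calls, pairs without order, matching within 5 kb, at most 1 Mb, protein-coding transcripts only and members in the first column only. Python 3.11.15, numpy 2.4.6, scipy 1.17.1, pandas 2.3.3, matplotlib 3.10.9 and pysam 0.24.0 were used.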

Additional observations from a re-analysis of the deposited data

How the results depend on the processing

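No paired analysis was possible because the series has 1 group. The number of interactions, 162, fell to 55 with scores of at least 7 and to 18 with at least 10, and stayed within 1.5 times of it under the other alternatives, from 131 to 139 with 1 replicate left out. The share called in all replicates, 29.0%, was 36.4% and 38.9% with those scores, 58.6% with partners matched within 5 kb, and 40.5 to 43.9% with 1 replicate left out, where it needs 2 replicates in place of 3. The median distance, 275 kb, was 269 kb with scores of at least 10, 243 kb in the merged calls, 266 kb over at most 1 Mb and 268 to 278 kb with 1 replicate left out. The number of genes with an interaction in all replicates, 8, was 3 with scores of at least 10, and 8 with any 1 replicate left out. Single genes also depended on 1 library. Without replicate 3, PRRX1 had 11 interactions in place of 18, ENPEP 1 in place of 4 and MYOZ1 3 in place of 5, and without replicate 1 SYNPO2L had 13 in place of 20 and MYOZ1 3 in place of 5. With protein-coding transcripts only, ENPEP had no promoter fragment left and CAV2 18 interactions in place of 32. Over all alternatives, 70 of 99 numbers of interactions per gene stayed within 1.5 times of the main value and 28 of the other 29 were lower. Of 82 mean scores of a strongest interaction, 75 stayed within 1 SD. The other 7 were higher, all in the merged calls, which are pooled scores. This count was largely fixed in advance and does not measure robustness. Apart from the merged calls and the left-out replicates, every alternative with a value returned the main value. Leaving out 1 of 3 scores cannot move the mean of the same pair by 1 SD. All 47 interactions called in all 3 replicates were in the merged calls, 45 of them with a score above every replicate, and 47 of the 85 called in 1 replicate were there too. The causes of these shifts were not tested. Scores under 5 are not listed, so no difference between replicates in a listed contact shows that the contact was lost.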

Other observations

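A fragment far from the caveolin genes, chr7:113722135-113722908, was listed with CAV1 at 10.33 and with CAV2 at 8.94, in replicate 2 and in neither other replicate, at 2444 and 2416 kb. It was listed with 8 promoter fragments in all. TES had it in replicate 2 too (6.97). The promoter fragments of MIR3666 (8.45, 8.81 and 6.60) and TFEC (9.60, 5.15 and 13.82) and 2 promoter fragments with no GENCODE release 44 start had it in all 3 replicates. The promoter fragment chr7:116210079-116213191, which shared most partners with CAV1, had it in replicates 1 and 3 (11.31 and 9.21) and not in replicate 2. The merged calls listed it with 5 of the 8, among them neither CAV1 nor CAV2. These promoters and this fragment were chosen after their values were seen, and the cause of the pattern was not tested.

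In the merged calls SYNE2 had 11 interactions, beside 6 in the union of the replicates, and 6 of those listed in the merged calls only fell in SYNE2 itself, with scores from 5.11 to 5.47. CAV1 had 28 interactions in the merged calls and 33 in the union.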
